A study of Mus musculus with 16 samples.

Results

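The Kruppel-like factors (KLFs) are transcription factors that bind GC-rich and CACCC-containing DNA through a set of zinc fingers at the end of the protein. The 10 genes described here are Klf2, Klf3, Klf4, Klf5, Klf6, Klf7, Klf9, Klf10, Klf13 and Klf15, taken by gene symbol from a table of 46078 mouse genes. All 10 passed the filter on low counts, a level of at least 1 CPM (counts-per-million) in at least 3 of the 4 libraries of any group, and were among the 14897 genes tested. Klf5 passed only through polyA libraries and had at most 6 counts in any Ago2-IP library, so its lower level in Ago2-IP RNA was in part set by the filter.

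Mouse juxtaglomerular (JG) cells, the renin-secreting cells at the kidney arteriole, carried YFP driven by the renin promoter and received either miR-106b or, as control, the precursor of a miRNA that mammals lack. At 48 h, RNA was taken from 4 cultures of each transfection by polyA selection, and from another 4 cultures of each by immunoprecipitation of Ago2, the Argonaute protein that holds miRNAs and their bound transcripts. The 16 libraries thus form 4 groups of 4, named below by RNA (polyA or Ago2-IP) and transfection (control or miR-106b). Cells for polyA RNA went directly into Trizol, whereas those for Ago2-IP were trypsinized and lysed, so the kind of RNA and the way of harvest cannot be told apart.

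Total counts ran from 2579086 to 9459585 per library. In polyA RNA the medians were 6450099 for control and 3645938 for miR-106b, and in Ago2-IP RNA 3638860 for control and 3264122 for miR-106b, so the polyA control libraries were the deepest. The 10 KLF genes together held from 0.0627% to 0.0961% of the counts of a library. Libraries were not strand-specific, and exons of Klf3 shared 404 bases with Gm20033 on the opposite strand, while those of Klf7 shared 3196 bases with Gm26649 and 4 with Gm13748. Reads from these pairs cannot be told apart.

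The label of the cells was checked against marker genes. Ren1, which encodes renin, had 0 counts in all 16 libraries, and Akr1b7, the other JG marker examined, had 6 counts in total. With 0 counts, a Ren1 level of up to 0.317 CPM was allowed in the deepest library and up to 1.16 CPM in the shallowest, taking 3 counts as the upper limit. Of 8 kidney epithelium markers only Lrp2 passed the filter. Transcripts of cardiac muscle were abundant, and their 20 markers summed to between 19860 and 96083 CPM, led by Myh6, the cardiac myosin heavy chain. The data thus go against a renin-expressing cell, and the libraries are called below by their RNA and transfection only.

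Replicate 4 of each Ago2-IP group stood apart from the other libraries of its group. Gm10800, a predicted gene, held 0.152%, 0.0225%, 0.165% and 1.12% of the counts in Ago2-IP control replicates 1 to 4, and 1.06%, 1.504%, 0.771% and 0.148% in Ago2-IP miR-106b replicates 1 to 4. Over the genes tested other than Gm10800, the chi-square per degree of freedom of control replicate 4 was 3.93 to 6.95 against the other control libraries and 1.86 to 2.66 against miR-106b replicates 1 to 3. That of miR-106b replicate 4 was 2.61 to 7.43 against its own group and 2.01 to 2.18 against control replicates 1 to 3. Both libraries were thus closer to libraries labelled with the other transfection than to those of their own group. Whether their labels are right was not tested, all libraries were kept in the groups that the labels give, and the log2 fold changes and calls of the 10 KLF genes that rest on both are also given without them, a choice made after the data had been seen. In polyA RNA, miR-106b replicate 1 also stood apart from its group, at 16.4 to 26.9 by the same chi-square. The other pairs of that group were at 5.89 to 11.9. In Ago2-IP RNA, control replicate 3 was at 2.23 against miR-106b replicate 3, below its 2.97 to 3.93 against its own group. It was at 3.09 and 5.75 against miR-106b replicates 1 and 2.

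KLF proteins fall into classes by the partners they bind. Klf2, Klf4, Klf5, Klf6 and Klf7 mostly activate transcription through acetyltransferases, Klf3 represses through the CtBP corepressors, and Klf9, Klf10 and Klf13 can bind the Sin3a corepressor. In vessels, flow induces Klf2 and Klf4 through the kinase Mapk7 and Mef2 factors, while Klf9 and Klf15 are induced by glucocorticoids and Klf15 controls metabolic genes of the heart.

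The order of the levels was compared per kilobase (kb) of exon, with CPM scaled by TMM, edgeR's trimmed mean of M-values, over the libraries of 1 kind of RNA. Exon lengths were those of all annotated exons joined, from GENCODE M21 (GRCm38), where the span of Klf5, Klf6, Klf9, Klf10 and Klf13 differs from that in the count table, so their values per kb rest on lengths that may not be the ones counted. The lengths of Klf3 and Klf7 include the bases shared with genes on the opposite strand. Klf2 was highest in all 4 groups. In polyA control it averaged 85.4 CPM per kb over its 4 libraries (72.2 to 98.9), against 66.2 (57.3 to 70.7) for Klf4, and these ranges did not overlap. Klf9, Klf6 and Klf10 followed at 18.6, 18.5 and 18.4 CPM per kb with overlapping ranges. Klf13 at 13.5, Klf3 at 8.92, Klf15 at 6.88, Klf7 at 6.39 and Klf5 at 3.99 CPM per kb completed the order, and of these neighbours only Klf15 and Klf7 overlapped.

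With miR-106b the polyA order was Klf2 at 74.5, Klf4 at 39.2, Klf9 at 27.4, Klf13 at 15.6, Klf15 at 14.8, Klf6 at 11.9, Klf10 at 8.64, Klf3 at 6.23, Klf7 at 5.42 and Klf5 at 1.31 CPM per kb. Every neighbouring pair overlapped there except Klf2 and Klf4, Klf9 and Klf13, and Klf7 and Klf5. In Ago2-IP control RNA the order was Klf2 at 93.0, Klf4 at 40.6, Klf9 at 34.3, Klf15 at 26.1, Klf13 at 19.6, Klf6 at 9.90, Klf10 at 5.64, Klf3 at 5.42, Klf7 at 4.97 and Klf5 at 0.220 CPM per kb. Only Klf10 with Klf3 and Klf3 with Klf7 overlapped. The Ago2-IP miR-106b libraries had the same order, from Klf2 at 82.1 to Klf5 at 0.107 CPM per kb, and Klf4 and Klf9 overlapped as well.

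**Figure D1:**
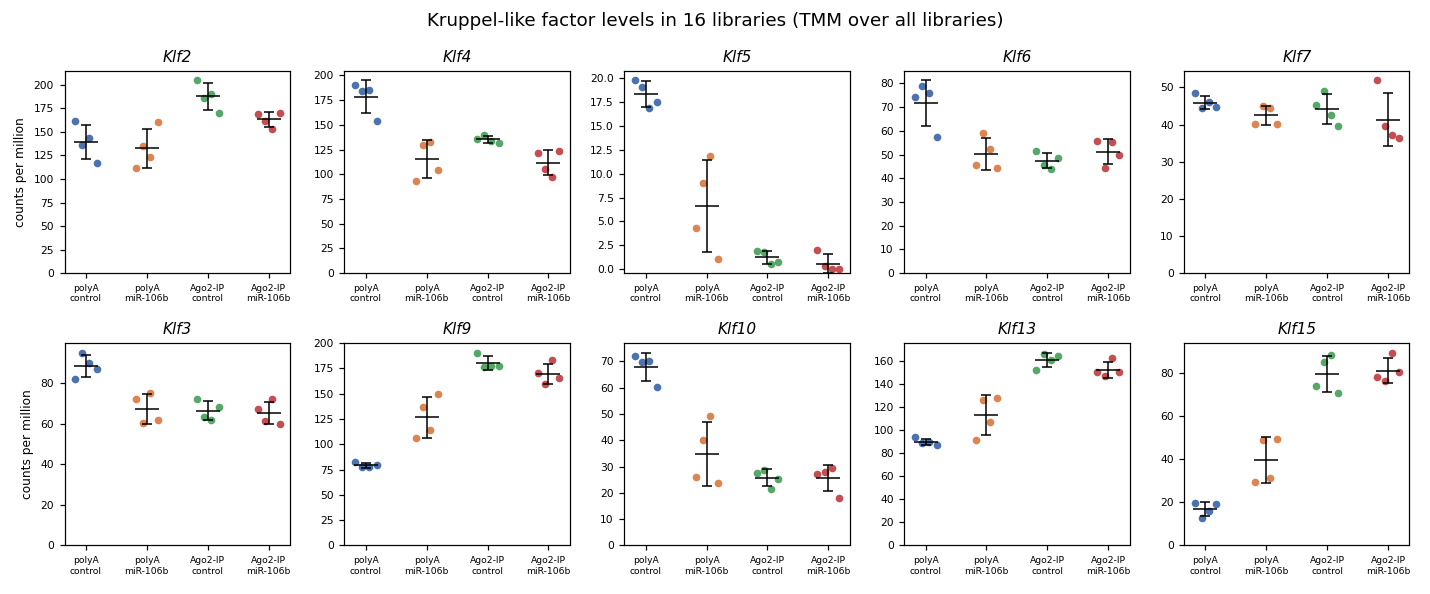
Level of each of the 10 KLF genes in CPM (vertical axes, TMM over all 16 libraries) in the 4 groups (horizontal axes). Coloured points are libraries in the order of their replicate numbers, black bars the mean and SD of 4 libraries. Klf15 lies at 12.7 to 19.8 in polyA control and 29.5 to 49.3 in polyA miR-106b, while both Ago2-IP groups lie above 70.

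The first comparison asks how the polyA level of each gene differed between miR-106b and control cells, with TMM over the 8 polyA libraries. Differences were tested with edgeR's quasi-likelihood test over all genes, and a gene is called where its Benjamini-Hochberg adjusted p is under 0.05. Of the 10 KLF genes 7 were called, 2 higher and 5 lower, against 40.5% of all genes called, 19% higher and 21.5% lower. Klf9 and Klf15 were the 2 that rose, and Klf3, Klf4, Klf5, Klf6 and Klf10 the 5 that fell. The groups did not overlap in 8 genes, against 38.3% of all genes, and the median log2 fold change was -0.38 for the KLF genes and -0.05 for all genes. Of all called genes 47% were higher, a share that came to 61.4% with all 16 libraries scaled together, where the median of all genes was 0.07. The share was 60%, 60.3% and 60.2% without polyA control replicate 1, 2 or 3. In each of these settings the 7 calls held.

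Among the activating members, Klf2 (ENSMUSG00000055148, chr8:72319033-72321656, build GRCm38 as for all positions here), the flow-induced factor of endothelium, stood at 183, 154, 161 and 133 CPM in polyA control replicates 1 to 4. It stood at 115, 139, 129 and 168 CPM in polyA miR-106b replicates 1 to 4. These libraries overlapped, and the log2 fold change of -0.20 (SE 0.135, n = 4 per group) was not called by edgeR's quasi-likelihood test (adjusted p = 0.262).

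Klf4 (ENSMUSG00000003032, chr4:55527143-55532466), a factor of vascular cells and of pluripotency, had 215, 209, 208 and 175 CPM in polyA control. In polyA miR-106b it had 96.3, 133, 139 and 110 CPM. Every miR-106b library lay below every control library, and Klf4 fell with a log2 fold change of -0.76, SE 0.131 and adjusted p = 0.000986 in edgeR's quasi-likelihood test.

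Klf5 (ENSMUSG00000005148, chr14:99298691-99313405), which promotes growth of epithelium and smooth muscle, had 22.4, 21.7, 19.0 and 19.9 CPM in polyA control and 4.47, 9.34, 12.4 and 1.11 CPM in polyA miR-106b. The control libraries were tight, whereas the miR-106b libraries differed among themselves, with replicate 4 lowest. Klf5 had the lowest log2 fold change of the 10 genes, -1.56 with SE 0.372 and adjusted p = 0.00625 in edgeR's quasi-likelihood test.

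Klf6 (ENSMUSG00000000078, chr13:5861489-5870393), a factor induced by injury, had 84.0, 89.4, 85.6 and 65.3 CPM in polyA control. It had 46.9, 60.6, 54.5 and 46.6 CPM in polyA miR-106b, below all control libraries. Klf6 fell with a log2 fold change of -0.64, SE 0.132 and adjusted p = 0.00252 in edgeR's quasi-likelihood test.

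Klf7 (ENSMUSG00000025959, chr1:64029447-64122282), known for its role in neurons, had 54.8, 50.5, 51.8 and 51.0 CPM in polyA control and 41.3, 46.2, 46.5 and 42.2 CPM in polyA miR-106b. The groups did not overlap, but the log2 fold change of -0.24 (SE 0.104) was not called by edgeR's quasi-likelihood test (adjusted p = 0.0847).

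Klf3 (ENSMUSG00000029178, chr5:64803388-64832901), the CtBP-binding repressor, had 92.8, 108, 101 and 99.0 CPM in polyA control and 74.4, 61.9, 78.5 and 65.2 CPM in polyA miR-106b. All miR-106b libraries were below all control libraries, and Klf3 fell with a log2 fold change of -0.52, SE 0.111 and adjusted p = 0.00291 in edgeR's quasi-likelihood test.

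The Sin3a-binding members went different ways. Klf9 (ENSMUSG00000033863, chr19:23141226-23166911), a glucocorticoid- and thyroid hormone-induced factor, had 93.7, 88.5, 86.8 and 89.9 CPM in polyA control and 109, 141, 120 and 157 CPM in polyA miR-106b. All miR-106b libraries were above the controls, and Klf9 rose with a log2 fold change of 0.55, SE 0.122 and adjusted p = 0.00355 in edgeR's quasi-likelihood test.

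Klf10 (ENSMUSG00000037465, chr15:38294413-38300707), a TGF-beta-inducible early gene, had 81.4, 79.0, 78.9 and 68.4 CPM in polyA control. In polyA miR-106b it had 26.8, 41.4, 51.5 and 24.8 CPM, all below the control range. Its log2 fold change was -1.09 (SE 0.194, adjusted p = 0.00111 by edgeR's quasi-likelihood test).

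Klf13 (ENSMUSG00000052040, chr7:63886347-63938915), which acts in heart development and in T cells, had 106.4, 101, 101 and 99.2 CPM in polyA control and 93.9, 130, 112 and 134 CPM in polyA miR-106b. Replicate 1 of miR-106b lay below all controls and the other 3 above them. The log2 fold change of 0.21 (SE 0.121) was not called by edgeR's quasi-likelihood test (adjusted p = 0.197), but it was 0.38 and called without that library (adjusted p = 0.00588) and 0.33 and called in the fit of all 16 libraries (adjusted p = 0.00700).

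Klf15 (ENSMUSG00000030087, chr6:90462576-90475238), a regulator of amino acid, lipid and glucose metabolism in muscle, heart and liver, had 22.4, 14.4, 18.1 and 21.8 CPM in polyA control. In polyA miR-106b it had 30.4, 50.2, 32.8 and 51.8 CPM, above every control. Klf15 rose with a log2 fold change of 1.10, SE 0.203 and adjusted p = 0.00125 in edgeR's quasi-likelihood test, the highest log2 fold change of the 10 genes.

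In the exact permutation test over the 70 relabellings of 4 against 4 libraries, two-sided, p was 0.0286 for each of the 8 genes without overlap, the smallest that this design can give. For Klf2 and Klf13 the same exact permutation test gave p = 0.257 and p = 0.229.

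The second comparison asks whether the KLF transcripts bound to Ago2 differed between the transfections, with TMM over the 8 Ago2-IP libraries. By edgeR's quasi-likelihood test 0% of all genes were called, that is 0 genes, and 827 genes (5.55%) had an unadjusted p under 0.05. DESeq2's Wald test called 2 genes. With 1 Ago2-IP library left out the count also came to 40 (miR-106b replicate 4), 10 (control replicate 4) and 4 (miR-106b replicate 1), and it was 20 without a filter and 2 among genes with at least 10 counts in every library. Without replicate 4 of both Ago2-IP groups 181 of 14897 genes were called, 89.5% of them higher. The count of 0 thus depends on these libraries. None of the 10 KLF genes was called with all 8 libraries, and 2, Klf2 and Klf4, had an unadjusted p under 0.05. The groups did not overlap in 1 KLF gene, Klf4, against 3.26% of all genes. Their median log2 fold change was -0.06, beside 0.00 for all genes.

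Klf4 had 124, 127, 123 and 123 CPM in the Ago2-IP control libraries and 115, 98.9, 90.2 and 112 CPM with miR-106b. Its log2 fold change was -0.25 (SE 0.0691, adjusted p = 0.465 by edgeR's quasi-likelihood test). Without replicate 4 of both groups Klf4 was called lower, at -0.30 (adjusted p = 0.0226, the same edgeR quasi-likelihood test). Klf2 had 187, 168, 174 and 158 CPM in the Ago2-IP control libraries and 159, 152, 141 and 154 CPM with miR-106b. Only replicate 1 of the miR-106b libraries reached into the control range, at a log2 fold change of -0.18 with SE 0.0596 (adjusted p = 0.636 by edgeR's quasi-likelihood test). It was at -0.23 without replicate 4 of both groups (adjusted p = 0.0565, edgeR's quasi-likelihood test). In both genes most or all miR-106b libraries were the lower ones, but with all 8 libraries neither passed the correction.

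Klf5 had 6, 6, 2 and 3 counts in the Ago2-IP control libraries and 5, 1, 0 and 0 counts with miR-106b, or at most 1.94 CPM. With so few counts its fitted log2 fold change of -1.13 had an SE of 0.851 and depends on the small count that the fit adds, so a difference was not detectable at this depth. The 0 counts allow up to 0.971 CPM in replicate 3 and 0.872 CPM in replicate 4.

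The genes that had risen in polyA RNA were not called in Ago2-IP RNA. Klf15 had 68.0, 77.3, 80.6 and 65.7 CPM in the Ago2-IP control libraries and 73.6, 71.8, 82.8 and 73.3 CPM with miR-106b, and its log2 fold change was 0.05 (SE 0.0833). Klf9 had 174, 160, 162 and 165 CPM and then 161, 150, 169 and 150 CPM, a log2 fold change of -0.07 (SE 0.0584). The groups overlapped in both genes.

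For the other members the Ago2-IP libraries of both transfections overlapped too. Klf10 ranged from 19.6 to 26.0 CPM in control and from 16.6 to 27.1 CPM with miR-106b, Klf6 from 40.3 to 47.2 and from 41.7 to 52.3 CPM, and Klf3 from 56.7 to 66.0 and from 54.7 to 66.7 CPM. Klf7 ranged from 36.7 to 44.4 CPM in control and from 33.2 to 48.8 CPM with miR-106b, and Klf13 from 139 to 153 and from 137 to 150 CPM. The log2 fold changes were 0.01 for Klf10, 0.13 for Klf6, -0.01 for Klf3, -0.08 for Klf7 and -0.06 for Klf13. Without replicate 4 of both Ago2-IP groups they were 0.16 for Klf10, 0.17 for Klf6, 0.06 for Klf3, -0.06 for Klf7 and -0.02 for Klf13, beside -0.91 for Klf5, 0.01 for Klf15 and -0.05 for Klf9, and none of these 8 was called by edgeR's quasi-likelihood test. The sign for Klf10 flipped without a filter and in the fit of all 16 libraries, and that for Klf3 with at least 10 counts in every library and without replicate 4 of both Ago2-IP groups.

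**Figure D2:**
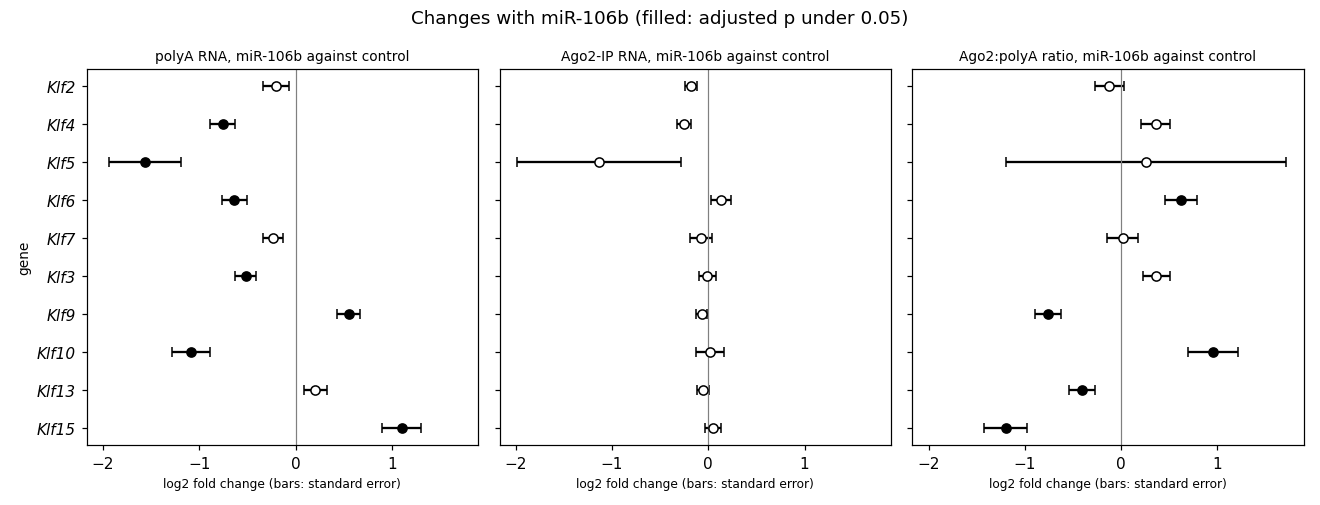
Log2 fold change of the 10 KLF genes with miR-106b against control in polyA RNA, in Ago2-IP RNA and in the ratio between them (horizontal axes). Points are estimates from 4 libraries per group, bars the standard error, filled points an adjusted p under 0.05. The filled points run from -1.56 to 1.10 in polyA RNA, and no point is filled in Ago2-IP RNA, where Klf4 was called without replicate 4 of both groups. With scaling by library size only, with TMM within each RNA kind or without a filter, the ratio of Klf2 turns positive, and the signs of Klf10 and Klf3 in Ago2-IP RNA flip under other fits.

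Another comparison tested the difference itself with all 16 libraries, by the interaction term of the fit: the change of the Ago2:polyA ratio with miR-106b. It shares its libraries with the comparisons above and is no independent evidence. Of all genes 27.3% were called, 7.62% with a higher and 19.7% with a lower ratio, and of the 10 KLF genes 5 were called, 2 higher and 3 lower. The median log2 change of the ratio was 0.14 for the KLF genes and -0.07 for all genes. The share of calls that were higher, 27.9% over all genes, moved to 46.3% with scaling by library size only, 45% with TMM within each RNA kind and 44.3% without a filter. With scaling by library size only the median of all genes was 0.10.

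Klf10 and Klf6, lower in polyA RNA and not called in Ago2-IP RNA, had higher ratios with miR-106b. The log2 change of the ratio was 0.95 for Klf10 (SE 0.264, adjusted p = 0.00918, edgeR's quasi-likelihood test). For Klf6 it was 0.62 (SE 0.169, adjusted p = 0.00785 by edgeR's quasi-likelihood test).

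The 3 KLF genes with lower ratios were Klf15, Klf9 and Klf13. The change was -1.20 for Klf15 (SE 0.222, adjusted p = 0.000275, edgeR's quasi-likelihood test) and -0.76 for Klf9 (SE 0.135, adjusted p = 0.000161, the same test). For Klf13 it was -0.41 (SE 0.134, adjusted p = 0.0265, edgeR's quasi-likelihood test). The call on Klf13 was lost with scaling by library size only (-0.24), with TMM within each RNA kind (-0.26) and without a filter (-0.26). It was also lost without polyA miR-106b replicate 2 (-0.26) or 4 (-0.34), or without replicate 2 of Ago2-IP control (-0.39) or of Ago2-IP miR-106b (-0.39), and without replicate 4 of both Ago2-IP groups (-0.39), at adjusted p between 0.0513 and 0.338 in edgeR's quasi-likelihood test over these 8 settings. The calls on Klf6 (0.64), Klf10 (1.08), Klf9 (-0.76) and Klf15 (-1.25) held without replicate 4 of both Ago2-IP groups.

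Klf3 and Klf4 were close to the threshold. The ratio changed by 0.36 for Klf3 (SE 0.141, adjusted p = 0.0579, edgeR's quasi-likelihood test), which was called in 10 of 24 other settings, among them the fits without polyA miR-106b replicate 1, 2 or 3 or Ago2-IP miR-106b replicate 4. It also changed by 0.36 for Klf4 (SE 0.154, adjusted p = 0.0886, edgeR's quasi-likelihood test), which was called in 8 of 24 settings, among them those without polyA miR-106b replicate 2 or 3 or polyA control replicate 4. The values were -0.12 for Klf2, 0.01 for Klf7 and 0.26 for Klf5, where the SE was 1.45. None of these 3 was called in any setting. The change without replicate 4 of both Ago2-IP groups was 0.42 for Klf3, 0.30 for Klf4, -0.19 for Klf2, 0.02 for Klf7 and 0.46 for Klf5, and none of these 5 was called.

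The remaining comparisons set Ago2-IP RNA against polyA RNA within 1 transfection, each with TMM over its own 8 libraries. In control cells 73.3% of all genes were called, 35.4% higher and 37.9% lower in Ago2-IP RNA, and the groups did not overlap in 67.1%. Of the KLF genes 9 were called, 4 higher and 5 lower, and the same number had groups without overlap. With so many genes called in all, this count says nothing particular about the KLF genes. All 9 calls held without replicate 4 of Ago2-IP control. With scaling by library size only the median of all genes moved from -0.06 to -0.35 and the share of calls that were higher from 48.3% to 37.6%.

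Klf15 had 20.4, 13.2, 16.7 and 19.8 CPM in polyA control and 75.0, 86.5, 89.7 and 71.7 CPM in Ago2-IP control. Its log2 difference was 2.22 with SE 0.123 (adjusted p = 1.15e-13, edgeR's quasi-likelihood test). Klf9 had 85.2, 80.9, 79.9 and 81.4 CPM in polyA control and 192, 179, 181 and 180 CPM in Ago2-IP control, a log2 difference of 1.16. Klf13 differed by 0.81, from 89.8 to 96.6 CPM in polyA control and from 153 to 169 CPM in Ago2-IP control, and Klf2 by 0.40, from 121 to 166 and from 172 to 206 CPM. For Klf2 the difference was 0.11 and not called with scaling by library size only (adjusted p = 0.221, edgeR's quasi-likelihood test).

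Klf10 was among those lower in Ago2-IP RNA, with 74.0, 72.3, 72.6 and 62.0 CPM in polyA control and 27.9, 29.0, 21.8 and 25.5 CPM in Ago2-IP control, a log2 difference of -1.43 (SE 0.104). Klf5 had 17.5 to 20.4 CPM in polyA control and 0.598 to 1.88 CPM in Ago2-IP control, and its fitted log2 difference was -3.93 (SE 0.260). Klf6, Klf3 and Klf4 differed by -0.63, -0.44 and -0.43. Klf7, from 46.2 to 49.7 CPM and from 40.0 to 49.6 CPM, differed by -0.09 and was not called (adjusted p = 0.401, edgeR's quasi-likelihood test), but was called at -0.38 with scaling by library size only.

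In miR-106b cells 38.5% of all genes were called between Ago2-IP and polyA RNA, 18.6% higher and 19.8% lower, and the groups did not overlap in 37.2%. Of the KLF genes 4 were called, 3 higher and 1 lower, and 3 had groups without overlap. The 4 calls held without replicate 4 of Ago2-IP miR-106b. With scaling by library size only the median of all genes moved from -0.04 to -0.19 and the share of calls that were higher from 48.5% to 34%. The comparison shares its Ago2-IP and polyA miR-106b libraries with those above.

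Klf15 had 28.9, 47.7, 30.7 and 48.2 CPM in polyA miR-106b and 76.5, 74.6, 87.6 and 78.8 CPM in Ago2-IP miR-106b, a log2 difference of 1.04 with SE 0.167 (adjusted p = 0.000362, edgeR's quasi-likelihood test). Klf13 differed by 0.43 (SE 0.1246, adjusted p = 0.0125) and Klf9 by 0.42 (SE 0.126, adjusted p = 0.0148) in edgeR's quasi-likelihood test. Both calls were lost with scaling by library size only, at 0.28 and 0.28, and that on Klf9 also without Ago2-IP miR-106b replicate 3, at 0.38. Klf5 was the gene lower in Ago2-IP RNA, with 4.25, 8.88, 11.6 and 1.03 CPM in polyA miR-106b and 2.01, 0.303, 0 and 0 CPM in Ago2-IP miR-106b. Its fitted log2 difference of -3.58 (SE 0.936, adjusted p = 0.0120, edgeR's quasi-likelihood test) was -5.54 without Ago2-IP miR-106b replicate 1.

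Klf2 (0.30, adjusted p = 0.0613) and Klf10 (-0.45, adjusted p = 0.138) were not called by edgeR's quasi-likelihood test, but were without polyA miR-106b replicate 4, at 0.41 and -0.58. The differences of Klf3, Klf4, Klf6 and Klf7 were -0.05, -0.04, 0.03 and -0.04. That of Klf6 turned negative with scaling by library size only and without a filter.

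The other 16 genes of the Sp/KLF family were looked at as a list, and 8 of them passed the filter. Of these 8, 1 rose and 4 fell in polyA RNA with miR-106b, beside 19% and 21.5% of all genes, and the median log2 fold change was -0.34 beside -0.05 for all genes. Klf16, a Sin3a-binding factor, fell by 0.82, from 74.6 ± 3.32 to 42.0 ± 6.40 CPM (SD, n = 4). Sp1, the widely expressed GC box factor, fell by 0.66 and its relative Sp2 by 0.34. Sp8 fell by 1.33 from 2.27 ± 0.715 to 0.893 ± 0.412 CPM, and Klf12, a CtBP-binding repressor, rose by 1.35 from 1.83 ± 0.430 to 4.75 ± 1.79 CPM. The number that fell was 2 without polyA control replicate 2 or 3. In edgeR's quasi-likelihood test the adjusted p of these 5 genes ran from 0.000682 for Klf16 to 0.0327 for Sp8.

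In the Ago2-IP comparison 0 of the 8 were called by edgeR's quasi-likelihood test, also without replicate 4 of both groups. The ratio was higher for 4, Klf16 by 0.58, Sp1 by 0.57, Sp2 by 0.36 and Sp8 by 3.67, and lower for Klf12 at -1.497, beside 7.62% of all genes higher and 19.7% lower. The number with a higher ratio was 2 without polyA control replicate 1, 2 or 3, polyA miR-106b replicate 4 or Ago2-IP miR-106b replicate 2, and without replicate 4 of both Ago2-IP groups. In edgeR's quasi-likelihood test the call on Sp1 was lost in 7 of 24 settings (adjusted p from 0.0575 to 0.0789), those without polyA control replicate 1, 2 or 3, polyA miR-106b replicate 4, Ago2-IP control replicate 2 or Ago2-IP miR-106b replicate 2 or 3. The call on Sp2 was lost in 12 of 24 (adjusted p from 0.0542 to 0.138, the same test), each without 1 library or without replicate 4 of both Ago2-IP groups. That on Klf16 was lost without these 2 libraries, at 0.53. That on Klf12 was lost without polyA miR-106b replicate 2, at -1.23, and that on Sp8 without Ago2-IP miR-106b replicate 1, at 3.45, beside 5.73 without replicate 4 of both Ago2-IP groups. Sp8 was near 0 in Ago2-IP control at 0.0596 ± 0.119 CPM, so its fitted values there are no bounds.

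Between Ago2-IP and polyA RNA in control cells 2 of the 8 were higher and 4 lower, beside 35.4% and 37.9% of all genes. Klf12 (1.96) and Klf11 (0.45) were higher in Ago2-IP RNA, and Sp1 (-1.03), Sp2 (-0.30), Klf16 (-1.35) and Sp8 (-4.49) were lower. Sp8 passed the filter only through polyA libraries, so its lower level in Ago2-IP RNA was in part set by the filter. The call on Klf11 was lost with scaling by library size only (0.16), without a filter (0.36) and without Ago2-IP control replicate 2 (0.35). In miR-106b cells 0 were higher and 2 lower, Sp1 (-0.43) and Klf16 (-0.74), beside 18.6% and 19.8% of all genes. The call on Sp1 was lost in 6 of 15 settings, by DESeq2's Wald test (-0.42), without polyA miR-106b replicate 3 (-0.28) and without each Ago2-IP miR-106b library in turn (-0.48 to -0.39).

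Genes that act with or upstream of the KLF proteins were described in the polyA comparison, where 40.5% of all genes were called and their median was -0.05. The most abundant gene of a list is the one with the highest mean CPM over all 16 libraries. Among 14 cofactors and ubiquitin ligases 2 rose and 3 fell, with a median of -0.14, so the share called was close to that of all genes. Fhl3, a LIM protein that binds Klf3, fell by 0.98, and Hdac1, a histone deacetylase, by 0.41. Kat2b, an acetyltransferase, rose by 0.51 and Fbxw7, a ligase that marks Klf2 and Klf5 for degradation, by 0.44, while the most abundant gene over all 16 libraries, the corepressor Ctbp1, had a log2 fold change of 0.13 and was not called. In polyA control Ep300 was above Ctbp1, at a mean of 267 against 221 CPM, and Ep300 was not called. With 1 library left out the number that fell ran from 1 to 5 and the number that rose from 0 to 2.

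Of 10 upstream regulators 3 rose and 0 fell by edgeR's quasi-likelihood test, beside 19% and 21.5% of all genes, with a median of 0.23. Thrb and Thra, the thyroid hormone receptors, rose by 1.48 and 0.76, and Mef2c by 1.20. Mef2d, the most abundant, had 0.25 and was not called. The number that rose was 6 without polyA miR-106b replicate 1 and 7 in the fit of all 16 libraries.

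Among 18 reported KLF target genes 10 rose and 5 fell, beside 19% and 21.5% of all genes, and the median was 0.85. Slc2a4, the insulin-responsive glucose transporter and a Klf15 target, was the most abundant over all 16 libraries and rose by 1.27. In polyA control Slc2a4, at a mean of 173 CPM, was below Tagln (494), Ccnd1 (222) and Cdkn1a (204). The log2 fold changes of Tagln, Ccnd1 and Cdkn1a were -0.48, -0.81 and -0.60, each called lower. Nos3, the endothelial nitric oxide synthase induced by Klf2, rose by 1.29 and the endothelial receptor Eng by 1.24. Klf2 itself was not called, and most endothelial markers described below rose as well. The number that fell was 3 without polyA control replicate 2.

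Of 10 glucocorticoid-induced genes 5 rose and 1 fell, beside 19% and 21.5% of all genes, with a median of 0.30. Zbtb16 rose by 1.26, the pyruvate dehydrogenase kinase Pdk4 by 1.15 and the metallothionein Mt2 by 1.11, and the kinase Sgk1 fell by 1.03. Per1, a clock gene and the most abundant over all 16 libraries, had 0.15 and was not called. In polyA control Sgk1 was above it, at a mean of 170 against 121 CPM. Among 16 immediate early genes 2 rose and 5 fell, with a median of -0.34, so here too the share called was close to the 40.5% of all genes. Fosl1 (log2 fold change -2.04), Myc (-1.505) and Ier3 (-0.68) fell, Zfp36 rose by 0.72, and the most abundant, Fosl2, had -0.33 and was not called. The number of immediate early genes that fell was 3, 2 and 2 without polyA control replicate 1, 2 or 3.

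None of these lists had a gene called in the Ago2-IP comparison by edgeR's quasi-likelihood test, with all 8 libraries or without replicate 4 of both groups. The calls on Hdac1, Fbxw7, Kat2b, Fosl1, Sp2 and Sp8 in polyA RNA were each lost in at least 2 of the settings tried.

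Markers of other cell types moved with these results. The 20 cardiac muscle markers summed, in CPM of the library total, to 25460, 19860, 21426 and 28289 in polyA control replicates 1 to 4 and to 38711, 67051, 48559 and 64899 in polyA miR-106b. In Ago2-IP RNA they summed to 94968, 95919, 93397 and 89830 in control and to 90097, 87366, 93252 and 96083 with miR-106b. The sum was thus lowest in polyA control, intermediate in polyA miR-106b and highest in both Ago2-IP groups. Of the 19 markers tested 18 rose and 0 fell in polyA RNA with miR-106b by edgeR's quasi-likelihood test, at a median of 1.23, and Myl7 did not pass the filter with 36 counts in total.

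The mean levels of Klf15, Klf9 and Klf13 ran the same way over the groups as this sum, but Klf13 was not called in polyA RNA. The levels of Klf5, Klf10, Klf4, Klf6 and Klf3 ran the other way in polyA RNA. Within polyA miR-106b, replicates 2 and 4 had the highest cardiac sums and also the highest Klf15, Klf9 and Klf13, but Klf5 and Klf10 were lowest in replicates 1 and 4. Within polyA control, replicate 4 had the highest cardiac sum but the lowest Klf13, and Klf9 and Klf15 were highest in replicate 1. The part of the cardiac transcripts in the KLF results was not tested. In such bulk samples fewer cells of a type and less RNA per cell cannot be told apart.

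**Figure D3:**
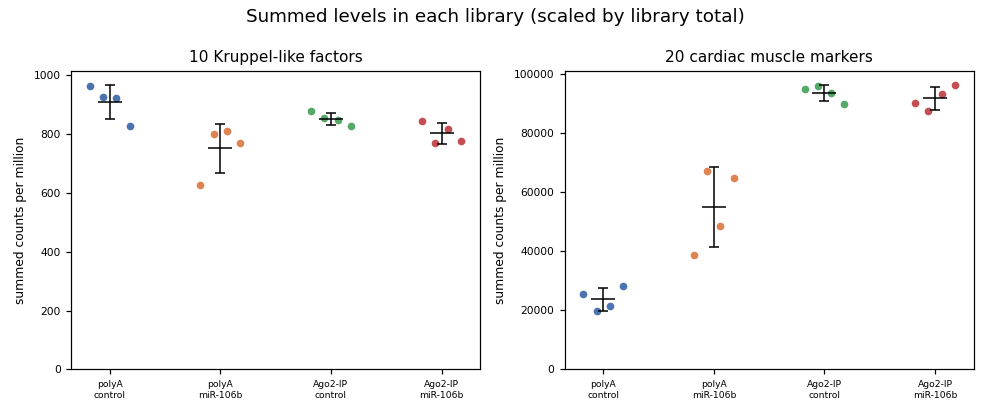
Summed CPM of the 10 KLF genes (left) and of 20 cardiac muscle markers (right) in each library, scaled by the library total, for the 4 groups on the horizontal axis. Points are libraries in the order of their replicate numbers, black bars the mean and SD of 4 libraries. The cardiac sum is 19860 to 28289 in polyA control, 38711 to 67051 in polyA miR-106b and 87366 to 96083 in the Ago2-IP groups.

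Other marker lists were higher in polyA RNA with miR-106b as well. Of 10 endothelial markers 9 rose, at a median of 1.14. Cdh5 was the most abundant of them over all 16 libraries, but in polyA control it was Flt1, which was not called. Their sum was 441 to 596 CPM in control and 679 to 1268 CPM in miR-106b libraries of polyA RNA, then 1615 to 1687 CPM in control and 1514 to 1664 CPM in miR-106b libraries of Ago2-IP RNA. Of 10 blood and macrophage markers, led by Lyz2, 9 rose at a median of 1.22, with sums of 135 to 201, 291 to 476, 646 to 674 and 614 to 699 CPM in the same order of groups.

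Of 10 mural and smooth muscle markers, led by Des, 7 rose and 1 fell at a median of 1.01, and Tagln among them is also in the list of KLF targets. Their sums were 2583 to 2877, 3668 to 4621, 5380 to 5689 and 5157 to 5710 CPM in that order. All 6 fibroblast markers, led by Col1a1, rose at a median of 1.23, with sums of 7897 to 9268, 10109 to 16821, 11786 to 12199 and 11644 to 11898 CPM. Of the kidney epithelium markers only Lrp2 was tested, at -1.07, and the 8 summed to 13.2 to 27.2, 3.51 to 16.4, 0.541 to 4.77 and 2.04 to 5.80 CPM. The JG markers stayed at or below 0.574 CPM in every library. The part of these cell types in the KLF results was not tested.

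In the Ago2-IP comparison 0 markers of these lists were called by edgeR's quasi-likelihood test, with medians of -0.02 for cardiac and -0.03 for endothelial markers. Without replicate 4 of both groups 1 cardiac and 1 mural marker were lower. The ratio was lower for 18 of 19 cardiac markers at a median of -1.39, and for 9 of 10 endothelial markers at -1.35. In Ago2-IP against polyA RNA 18 of 19 cardiac markers were higher in control cells, at a median of 2.27, and 18 of 19 in miR-106b cells, at 0.90. In the same comparisons, which share libraries, the log2 differences were 2.22 and 1.04 for Klf15, 1.16 and 0.42 for Klf9 and 0.81 and 0.43 for Klf13.

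The sequence of the transfected miRNA is shown because its seed, bases 2 to 8 in capitals, defines the target sites searched for. In RefSeq (GRCm38.p6) the mature miR-106b-5p lies at chr5:138165787-138165807 on the minus strand, and 7 mature mouse miRNAs in that table, miR-106b-5p included, share this seed.
miR-106b-5p: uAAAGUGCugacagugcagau

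Sites were searched in the longest 3'UTR of each gene in GENCODE M21 (GRCm38), on the transcript strand. They were GCACTTT, the complement of bases 2 to 8, CACTTTA, the complement of bases 2 to 7 followed by A, and GCACTTTA, which holds both and was counted once. All 10 KLF genes had an annotated 3'UTR, of 737 to 6266 bases, beside a median of 1398 bases over the genes tested. In the KLF genes 4 held a site, Klf3, Klf6, Klf9 and Klf10, each a single GCACTTT. Of 13234 tested genes with a 3'UTR 3048 (23.0%) held a site of any of the 3 kinds and 2023 (15.3%) held GCACTTT.

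The 4 sites are shown, because they are the KLF sequences that pair with the seed, with the site in capitals and 8 bases on each side. They lie at chr5:64832471-64832477 on the plus strand for Klf3, chr13:5869908-5869914 on the plus strand for Klf6, chr19:23165705-23165711 on the plus strand for Klf9 and chr15:38295140-38295146 on the minus strand for Klf10.
Klf3: aaatactaGCACTTTtttttcct
Klf6: gggaaaatGCACTTTtgtttggc
Klf9: cataaactGCACTTTtattttct
Klf10: aatacactGCACTTTgtttagaa

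Of these 4 genes Klf3, Klf6 and Klf10 fell in polyA RNA with miR-106b and Klf9 rose, while Klf4 and Klf5, with no site in these 3'UTRs, fell as well. The ratio was higher for Klf6 and Klf10, lower for Klf9 and not called for Klf3. A match describes the letters only and was not tested as a binding site.

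Promoters, from 250 bases before to 50 bases after the gene start, were read from RefSeq (GRCm38.p6) for 8 of the 10 KLF genes. Klf5 and Klf10 were not matched. The motifs were chosen after the data had been seen, and each was searched on both strands with overlapping matches kept. The cAMP response element TGACGTCA was in 0 of the 8 and in 1.79% of 32851 promoters, and the CACCC box CCACACCC in 0 and in 3.56%. The short motif TGACG, which TGACGTCA contains, was in 6 of 8, Klf2, Klf3, Klf4, Klf9, Klf13 and Klf15, and in 20.8% of all promoters. The GC box GGGCGG was in 7 of 8, all but Klf9, and in 35.7% of all promoters. The 32851 promoters were not limited to the genes tested here and were not matched for base composition.

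One match of TGACG each is shown for Klf9 and Klf15, the genes that rose in polyA RNA, with the motif in capitals. TGACG was also in the promoters of Klf3 and Klf4, which fell in polyA RNA, and of Klf2 and Klf13, which were not called. The matches shown lie at chr19:23141180-23141184, 46 bases before the start of Klf9, and at chr6:90462498-90462502, 78 bases before that of Klf15, both on the plus strand.
Klf9: ctggattgTGACGtgatggga
Klf15: ggggcgcgTGACGcgcggcgc
A match is no sign of binding, and no match says only that these letters are not in the window.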

How the data were processed

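The authors deposited raw counts per gene for 16 libraries, made from single-end, non-strand-specific reads. By the study's methods, ribosomal RNA reads were removed, reads were aligned with TopHat2 to the GRCm38 transcriptome and counted with HTSeq. The submitters' processing notes name TopHat2 2.0.10, while the methods name a later release. No column was left unused. The table gives gene starts counted from 0, and 1 was added here.

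The analysis used R 4.3.3, edgeR 4.0.16 and limma 3.58.1: TMM scaling, a robust quasi-likelihood fit with a prior count of 0.125, two-sided tests and Benjamini-Hochberg adjustment over all 14897 genes tested. CPM per library are relative to the TMM-scaled library size, except summed lists, which use the library total. The smallest p of the exact permutation test over 4 against 4 libraries was 0.0286. DESeq2 1.42.0 was an alternative, beside other scalings, filters, a replicate block, a fit of all libraries and each library left out in turn. The code was tested on simulated data. Sequences and figures used Python 3.11.15, pandas 2.3.3 and matplotlib 3.10.9. Upper limits for counts of 0 (3 counts) cover counting error only. Over all pairs of libraries the lowest chi-square per degree of freedom was 1.66, so none was counted as a duplicate. A fit without replicate 4 of both Ago2-IP groups was added after the data had been seen.

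All 10 members were named. Of the other lists the text names every called gene of the Sp/KLF family and, in the polyA comparison, the most abundant gene of each pathway list and at most 4 called genes with the largest log2 fold change and a mean of at least 5 CPM, except that a gene which the rule would name is not reported here. Beyond this rule, Tagln, Ccnd1, Cdkn1a and Ep300 are named for their level in polyA control. Members and lists were chosen with earlier results of these data known. Limiting the pathway names to the polyA comparison and choosing the promoter motifs came after the data had been seen.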

Additional observations from a re-analysis of the deposited data

Results flagged for a closer look

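In 3 of 52 sets of 4 libraries, 1 library stood apart from the other 3 by Dixon's test, and chance flags about 1 in 20 sets. The sets were the levels of the 10 genes, the summed levels of the 10 genes and of cardiac markers, and total counts, in each group. All 3 were in Ago2-IP miR-106b. Klf5 was at 1.94 CPM in replicate 1, against 0 to 0.292 CPM in the others. Klf10 was at 16.6 CPM in replicate 4, against 25.6 to 27.1 CPM. Klf15 was at 82.8 CPM in replicate 3, against 71.8 to 73.6 CPM.

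The change with miR-106b differed between Ago2-IP and polyA RNA, by the interaction term, for 5 of the 10 genes and for 5 of the 8 other Sp/KLF genes tested, beside 27.3% of all genes. The log2 difference, Ago2-IP less polyA, was 0.62 for Klf6, 0.95 for Klf10, -0.76 for Klf9, -0.41 for Klf13 and -1.20 for Klf15. It was 0.57 for Sp1, 0.36 for Sp2, 0.58 for Klf16, 3.67 for Sp8 and -1.497 for Klf12. Of 24 settings the call was lost in 8 for Klf13, 7 for Sp1, 12 for Sp2 and 1 for Klf16. It was lost in 1 of 23 for Klf12 and 1 of 22 for Sp8. Sp8 was at 0.0596 ± 0.119 CPM in Ago2-IP control and passed the filter only through polyA libraries, so its value depends on the small count that the fit adds and is no bound, and it was 5.73 without replicate 4 of both Ago2-IP groups. The kind of RNA and the way of harvest cannot be told apart in this difference.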

How the results depend on the processing

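The log2 fold changes of the 10 genes were recomputed in 845 combinations of gene, comparison and setting, and 770 kept their direction and their side of the threshold. Another 12 lost a call, 27 gained one and 36 changed sign, none of them called in either fit. For the other named genes 581 of 653 held, 66 lost a call, 6 gained one and 0 changed sign. DESeq2 gave no adjusted p for the ratio of Sp8. The 7 calls in polyA RNA held in every setting where the gene was tested, and Klf5 was not tested with at least 10 counts in every library. The cause of the changes was not tested.

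In the Ago2-IP comparison 0 genes were called, against 20 without a filter, 2 with at least 10 counts in every library, 2 by DESeq2's Wald test and 0 to 40 with 1 library left out. Without replicate 4 of both groups, chosen after seeing the data, 181 genes were called, 1 KLF gene (Klf4) was lower and Klf3 was at 0.0595. There the log2 fold change of Klf10 was -0.0026 without a filter, -0.0074 in the fit of all 16 libraries and -0.0626 to 0.161 with 1 library left out. Klf3 was at 0.00083 with at least 10 counts in every library and -0.0585 to 0.0383 with 1 library left out, and Klf15 at -0.0015 to 0.101.

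For the ratio, 4 of the 10 genes were higher in place of 2 with scaling by library size only, with TMM within each RNA kind, without a filter, with at least 10 counts in every library and by DESeq2's Wald test, and 2 to 4 with 1 library left out. Klf2 was at 0.0462 with scaling by library size only, 0.0246 without a filter and 0.0216 with TMM within each RNA kind. With 1 library left out, Klf7 ran from -0.108 to 0.133 and Klf5 from -1.76 to 0.690.

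Between Ago2-IP and polyA RNA in miR-106b cells, 1 gene in place of 3 was higher with scaling by library size only. There were 2 lower without a filter, 0 with at least 10 counts in every library, where Klf5 was not tested, and 1 to 2 with 1 library left out. Klf6 was at -0.125 with scaling by library size only, -0.0079 without a filter and -0.0266 to 0.105 with 1 library left out. The other ranges were -0.132 to 0.0335 for Klf4, -0.106 to 0.0064 for Klf3 and -0.167 to 0.0122 for Klf7.

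Correlations of the deviations of same-numbered libraries from their group means ran from -0.395 to 0.207. The lowest was between the replicate 4 libraries of Ago2-IP RNA, whose labels were not tested, and the highest between those of polyA RNA. These values cannot exclude a pairing by replicate number. With the replicate number as a block 1 gene was called in the Ago2-IP comparison and 5511 in place of 6034 in the polyA comparison. The number of KLF genes with a seed site was 4 with any annotated 3'UTR too. Depth limited Klf5 in Ago2-IP RNA, where 6 counts was the highest of any library.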
